A study of Mus musculus with 6 samples.

Results

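The transcripts of 8 genes of glucose and fructose uptake and glycolysis were measured in mouse liver after vertical sleeve gastrectomy (VSG, in which most of the stomach is removed) and in sham-operated mice. The genes were taken by name (Slc2a2, Slc2a1, Gckr, Hk2, Khk, Pfkfb1, Pfkfb3 and Pklr) and are 8 of the 55385 genes of the count table, all of them among the 14454 genes expressed highly enough to be tested. Poly(A) RNA was sequenced from whole livers of male wild-type C57BL/6 mice, 1 liver per library, with 3 libraries labelled Sham and 3 labelled VSG. The mice were 6 to 8 weeks old when a high-fat diet began, were operated after 10 weeks on it and stayed on it for 12 more weeks, so that both groups share the diet and the age range and differ by the kind of operation. The comparison asks how liver expression differs between the operations. No gene was modified in any group, and since whole liver was used, fewer cells of a type and less RNA per cell cannot be told apart.

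Hepatocytes take up glucose and fructose through the facilitative transporter GLUT2, encoded by Slc2a2, and trap them by phosphorylation. Glucose phosphorylation is restrained in the nucleus at low glucose by a regulatory protein (Gckr), while ketohexokinase (Khk) phosphorylates fructose and lets it enter below the phosphofructokinase step. The bifunctional PFKFB enzymes set the level of fructose 2,6-bisphosphate, the main activator of phosphofructokinase, and the liver form of pyruvate kinase (Pklr) closes the pathway. Several of these genes are textbook targets of ChREBP (Mlxipl), a carbohydrate-responsive factor that binds paired E-box-like elements. The L-type pyruvate kinase promoter is the classical example.

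Promoter sequences are shown for 4 of the genes as examples of letters of the carbohydrate-responsive or hypoxia-responsive kind. They come from the RefSeq promoter table (GRCm38.p6), which matched 8 of the 8 genes with 13 transcript starts. Capitals mark the paired elements in Pklr, an E box in Khk and Pfkfb3 and the hypoxia response core in Slc2a1. All are written 5′ to 3′ on the strand of the gene.
Pklr, chr3:89136373-89136571, + strand: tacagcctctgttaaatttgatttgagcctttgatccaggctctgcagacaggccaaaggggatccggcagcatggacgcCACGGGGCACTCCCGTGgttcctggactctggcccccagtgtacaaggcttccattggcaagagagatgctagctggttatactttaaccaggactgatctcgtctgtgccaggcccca
Khk, chr5:30921476-30921505, + strand: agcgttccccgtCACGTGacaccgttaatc
Pfkfb3, chr2:11502126-11502155, - strand: cacccttctctcCACGTGaaagggggctgg
Slc2a1, chr4:119108697-119108726, + strand: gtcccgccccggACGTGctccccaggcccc

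The paired elements of Pklr (CACGGGNNNNNCCCGTG) lie 170 bases before its second RefSeq start. That pattern was written down after the Pklr sequence had been read, and 1 of 32851 promoter windows on either strand holds it (0.00304%), which is this one. The E box CACGTG, which occurs in 7.15% of the windows, begins 71 bases before the Khk start and 53 bases before the second Pfkfb3 start. The Khk stretch also holds GTTAAT, letters found in HNF1 sites, 60 bases before the start (7.1% of windows). The same letters stand 59 bases before the start of Gckr and 114 bases before the third Pfkfb1 start. The positions are counted from RefSeq starts, and GENCODE M21 places the start of some genes further upstream. All 30 bases printed for Khk and 16 of the 30 printed for Slc2a1 lie in an annotated GENCODE exon. The GTTAAT letters of Gckr and Pfkfb1 lie within the spans of their genes. The core ACGTG, which is also part of every CACGTG, occurs in 19.6% of windows and lies 36 bases before the Slc2a1 start. It also lies 60 bases before the first Pfkfb3 start and, on the opposite strand, 226 and 52 bases before the Hk2 start, which are not printed. The letters TATAAA lie 31 bases before the second Pklr start, 193 bases before the third Pfkfb1 start and 28 bases after the Slc2a1 start. The Slc2a2 window held none of the motifs searched. These matches describe letters in a window and were not tested for binding.

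Total counts were 23666809 to 24191778 in Sham and 22804397 to 23509921 in the VSG livers, and 3 counts correspond to 0.111 to 0.143 CPM (counts scaled to library size, here with TMM factors). The 7 hepatocyte markers (Alb and others) summed to 65534 to 110651 CPM in Sham and 48793 to 80602 CPM in the VSG livers, and 0 of 7 passed the edgeR test (1 at an unadjusted p under 0.05), whereas fat and muscle markers Adipoq, Plin1, Ckm and Myh4 were at or near 0. Of 15 neutrophil markers, 15 were higher after VSG, with summed CPM of 24.6, 8.68 and 11.9 in Sham 1 to 3 and 1989, 176 and 925 in VSG 4 to 6. Of 10 macrophage markers, 3 were called higher, 7 were not called, and 2 had a log2 fold change below 0 (lowest -1.40), so the list did not move together. The sums of the 10 were 1068, 421 and 663 CPM in Sham and 2091, 885 and 1335 CPM in the VSG livers. VSG 4 therefore had the highest and VSG 5 the lowest sum of both marker groups among the VSG livers. The 6 stellate cell markers summed to 441 to 736 CPM in Sham and 244 to 463 CPM in the VSG livers, with 0 of 6 called by edgeR but 5 of 6 lower at an unadjusted p under 0.05. The only other marker called was Sox9 of the bile duct, 1 of 5 tested in that list, and 0 of 6 endothelial, 0 of 6 lymphocyte and 0 of 6 erythroid markers were called by edgeR (1, 0 and 1 at an unadjusted p under 0.05).

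Liver expression of 2 of the 8 genes was lower after VSG: Pklr, 4.93-fold, and Khk, 2.19-fold. These calls use edgeR's quasi-likelihood test with an adjusted p under 0.05 over all genes tested. A call in either direction was made for 14.7% of all tested genes, a call of lower expression for 7.87% (1137 genes) and a call of higher expression for 6.79% (981 genes). With total counts in place of TMM scaling, the median of all genes shifted by -0.14 and the split was 1512 lower and 486 higher, while the same 2 of the 8 genes were called. None of the 8 genes was called higher by edgeR, DESeq2 or limma, or had an unadjusted edgeR p under 0.05 for higher expression, and 6 were not called. The CPM of the groups did not overlap for 5 of the 8 genes, against 39.7% of all tested genes. Slc2a2, Gckr, Khk and Pklr were lower in every VSG liver than in every Sham liver (19.8% of tested genes were), and Slc2a1 was higher. The median log2 fold change was -0.76 over the 8 genes and 0.03 over all tested genes. The median of the 8 lies between the values of Khk and Pfkfb1. Without Sham 2 it lay between those of Pfkfb3 (-0.44) and Hk2 (-0.42), so it depends on that liver. Together the 8 genes took 0.142%, 0.154% and 0.171% of all counts in Sham livers and 0.0331%, 0.0723% and 0.0529% in the VSG livers.

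**Figure D1:**
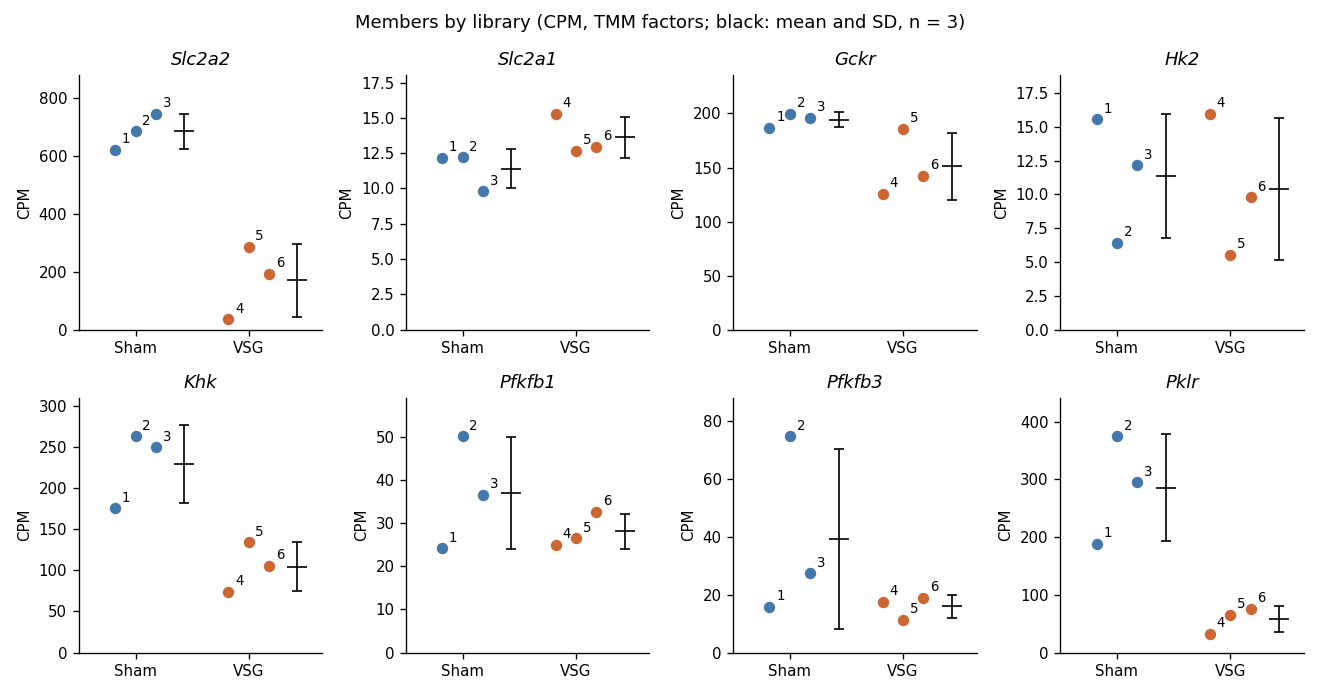
Expression of the 8 genes in each liver, in CPM (linear axes from 0) with the sample number beside each point and the group mean and SD in black (n = 3). For Slc2a2, Gckr, Khk and Pklr the VSG points lie below the Sham points, with Slc2a2 at 35.6 CPM in VSG 4 and Gckr of VSG 5 close to the Sham range, while the groups overlap for Hk2, Pfkfb1 and Pfkfb3.

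Slc2a2, the hepatocyte glucose and fructose transporter (ENSMUSG00000027690.13, chr3:28697903-28731359, + strand), was counted at 622, 685 and 746 CPM in Sham 1 to 3 and at 35.6, 285 and 192 CPM in VSG 4 to 6. All 3 VSG livers were below all 3 Sham livers, and the lowest Sham value was 2.18 times the highest VSG value. The spread was very unequal. The highest and lowest Sham livers differed 1.20-fold, whereas VSG 5 and VSG 4 differed 8.01-fold. Group means were 684 ± 62.0 CPM in Sham and 171 ± 126 CPM in the VSG livers (SD, n = 3). The log2 fold change was -2.001 ± 0.65 (SE, 95% interval -3.56 to -0.44), with an unadjusted p of 0.0191 and an adjusted p of 0.0844 by edgeR, so this 4.002-fold difference missed the threshold. It passed with DESeq2 (log2 fold change -2.01, adjusted p = 0.00517), and it passed without VSG 4 (-1.52, adjusted p = 0.0226) and without VSG 5 (-2.60, adjusted p = 0.0490). VSG 4, the liver with the lowest Slc2a2, had the highest neutrophil marker sum, and the part of these cells in the value was not tested otherwise.

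Slc2a1 encodes GLUT1, the transporter of most tissues, and is a minor one in hepatocytes (ENSMUSG00000028645.11, chr4:119108711-119137983, + strand). Its level was 12.2, 12.2 and 9.80 CPM in Sham and 15.3, 12.7 and 12.9 CPM in the VSG livers. The VSG livers were all above the Sham livers by a small margin. The log2 fold change was 0.26 ± 0.14 (SE, 95% interval -0.08 to 0.59, edgeR adjusted p = 0.242), and it stayed above 0 but uncalled under each of the 13 alternatives tried.

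Gckr, the regulatory protein of glucose phosphorylation (ENSMUSG00000059434.9, chr5:31297443-31327314, + strand), was steady among Sham livers at 187, 199.8 and 196 CPM. VSG livers held 126, 186 and 142 CPM. The groups did not overlap, but only just, since Sham 1 was 1.01 times VSG 5. The log2 fold change was -0.36 ± 0.16 (SE, 95% interval -0.74 to 0.02, edgeR adjusted p = 0.165). Leaving out VSG 5 alone made it pass the threshold (-0.56, adjusted p = 0.0347).

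Hk2 encodes the low-Km hexokinase of muscle and proliferating cells (ENSMUSG00000000628.10, chr6:82725025-82774454, - strand). It was counted at 15.5, 6.44 and 12.2 CPM in Sham and 16.0, 5.51 and 9.78 CPM in the VSG livers. The groups covered the same range. The log2 fold change of -0.13 ± 0.44 (SE, 95% interval -1.19 to 0.93, edgeR adjusted p = 0.855) took the opposite sign without Sham 1 (0.15) and without VSG 5 (0.15).

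Khk, ketohexokinase (ENSMUSG00000029162.15, chr5:30921431-30931248, + strand), the enzyme that commits fructose to liver metabolism, was at 176, 263 and 250 CPM in Sham and 74.0, 134 and 106 CPM in the VSG livers. Every VSG liver was below every Sham liver, and the gap between them was 1.31-fold. Means were 229 ± 47.1 CPM in Sham and 105 ± 30.1 CPM in the VSG livers (SD, n = 3), and the log2 fold change was -1.13 ± 0.25 (SE, 95% interval -1.74 to -0.53, edgeR adjusted p = 0.0332). The call was kept under all 7 changes of tool, scaling or filter. It was lost without Sham 2 (-1.03, adjusted p = 0.0895), Sham 3 (-1.07, 0.128), VSG 4 (-0.93, 0.0575) or VSG 6 (-1.14, 0.112).

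The fructose branch beyond Khk was followed through Tkfc, the triokinase that phosphorylates glyceraldehyde. Tkfc was at 292, 369 and 357 CPM in Sham and 94.3, 148 and 179 CPM in the VSG livers, a log2 fold change of -1.27 ± 0.25 (SE, edgeR adjusted p = 0.0232). The Tkfc groups did not overlap. Sord, which makes fructose from sorbitol, had a log2 fold change of -1.25 ± 0.40 (SE) that missed the threshold (edgeR adjusted p = 0.0782) but passed it in 5 of 13 alternatives, DESeq2 among them (adjusted p = 0.00936).

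Pfkfb1, the liver isoform of the bifunctional enzyme (ENSMUSG00000025271.13, chrX:150588229-150643878, + strand), was at 24.1, 50.1 and 36.5 CPM in Sham and 25.0, 26.5 and 32.6 CPM in the VSG livers. The VSG values lay within the Sham range. Its log2 fold change was -0.39 ± 0.26 (SE, 95% interval -1.01 to 0.22, edgeR adjusted p = 0.321) and came to -0.11 without Sham 2. Its exons share 123 bases with Apex2 on the opposite strand, which had 187 to 262 counts. Pfkfb3, the strongly kinase-biased isoform (ENSMUSG00000026773.19, chr2:11471433-11554077, - strand), was at 15.8, 74.7 and 27.4 CPM in Sham and 17.6, 11.3 and 19.0 CPM in the VSG livers. Here Sham 2 stood 4.73 times above Sham 1, and the groups overlapped. The Pfkfb3 log2 fold change of -1.30 ± 0.55 (SE, 95% interval -2.61 to 0.02, edgeR adjusted p = 0.152) came to -0.44 (adjusted p = 0.396) when Sham 2 was left out, so 1 liver carried most of it.

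Pklr, the liver pyruvate kinase (ENSMUSG00000041237.12, chr3:89136142-89146784, + strand), whose promoter is printed above, had the largest fold change of the 8 genes here, although that of Slc2a2 was larger with limma-voom, with limma on log2(FPKM + 1) and without VSG 5. It was counted at 188, 374 and 295 CPM in Sham and 32.3, 65.7 and 76.1 CPM in the VSG livers. The lowest Sham liver was 2.48 times the highest VSG liver. Means were 286 ± 93.3 CPM in Sham and 58.0 ± 22.9 CPM in the VSG livers (SD, n = 3), with a log2 fold change of -2.30 ± 0.38 (SE, 95% interval -3.21 to -1.39, edgeR adjusted p = 0.0167). The call was kept under all 7 changes of tool, scaling or filter and without VSG 4, but not without Sham 3 (-2.28, adjusted p = 0.0797) or VSG 6 (-2.54, adjusted p = 0.0597). Exons of Pklr share 711 bases with Hcn3 on the opposite strand, a gene with 5 to 41 counts per library where Pklr had at least 714. Mlxipl, the gene of ChREBP, was at 192, 198 and 182 CPM in Sham and 126, 304 and 182 CPM in the VSG livers, with overlap between the groups (log2 fold change 0.10 ± 0.30 (SE), edgeR adjusted p = 0.832). The Mlxipl value changed sign in 3 of 13 alternatives and was 0.35 without VSG 4 and -0.32 without VSG 5.

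Levels of different genes were compared as FPKM (CPM per kilobase of exon). In Sham livers the order was Khk at 128 ± 26.2, Slc2a2 at 119 ± 10.8, Pklr at 88.4 ± 28.8, Gckr at 44.8 ± 1.54, Pfkfb1 at 9.18 ± 3.23, Pfkfb3 at 5.20 ± 4.13, Slc2a1 at 3.25 ± 0.394 and Hk2 at 1.91 ± 0.771 FPKM (SD, n = 3). The ranges of Khk and Slc2a2, Slc2a2 and Pklr, Pfkfb1 and Pfkfb3, and Pfkfb3 and Slc2a1 overlapped, so those neighbours were not separated. In VSG livers the order was Khk at 58.2 ± 16.8, Gckr at 34.9 ± 7.13, Slc2a2 at 29.7 ± 21.9, Pklr at 17.9 ± 7.07, Pfkfb1 at 6.98 ± 1.004, Slc2a1 at 3.89 ± 0.414, Pfkfb3 at 2.11 ± 0.540 and Hk2 at 1.75 ± 0.881 FPKM. Here Khk overlapped with Gckr, Gckr with Slc2a2, Slc2a2 with Pklr and Pfkfb3 with Hk2. By group means, Gckr thus moved above Pklr and Slc2a2 while its own level was not called different. Its place above Pklr held in every VSG liver (Gckr at 29.0 FPKM or more, Pklr at 23.5 or less). Its place above Slc2a2 rests on VSG 4, where Gckr was at 29.0 and Slc2a2 at 6.19 FPKM. Slc2a2 was above Gckr in VSG 5 (49.6 against 42.8 FPKM) and in VSG 6 (33.4 against 32.8 FPKM). The spread also moved. The coefficient of variation of Slc2a2 was 9.07% in Sham and 73.8% in the VSG livers, and that of Pfkfb3 was 79.3% in Sham and 25.6% in the VSG livers. Each larger value rests much on 1 liver, VSG 4 for Slc2a2 and Sham 2 for Pfkfb3 (9.88 FPKM against 2.09 and 3.63).

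Within its transporter family, Slc2a2 made up 83.2%, 82.8% and 85.2% of the summed FPKM of the SLC2 genes in Sham livers and 25.0%, 67.6% and 61.1% in the VSG livers. The difference of the means, -32.5 percentage points, had a p of 0.1 by the exact two-sided permutation test, the smallest p that 3 against 3 livers allow, and was -19.4 without VSG 4. The summed FPKM of the family was 142 ± 11.3 in Sham and 50.9 ± 24.5 in the VSG livers. The share of Slc2a9, a urate and hexose transporter, went from 9.44% ± 0.684 to 21.7% ± 5.46 and that of Slc2a1 from 2.31% ± 0.431 to 9.77% ± 6.89, both with an exact permutation p of 0.1, although neither gene was itself called different in CPM. The difference in the Slc2a1 share, 7.46 percentage points, was 3.52 without VSG 4, where the share was 17.7%. The CPM of Slc2a9 was in fact lower on average after VSG, at 68.0 ± 5.88 in Sham and 51.6 ± 15.1 in the VSG livers (log2 fold change -0.40), so its larger share is one of a smaller family sum. The smaller shares of Slc2a8, Slc2a5 and Slc2a6 were likewise higher in all VSG than in all Sham livers, with log2 fold changes in CPM of 0.21 for Slc2a8, -0.59 for Slc2a5 and 1.64 for Slc2a6, none of them called. Without VSG 5 the Slc2a8 value was -0.03, and without VSG 4 those of Slc2a5 and Slc2a6 were -0.29 and 0.91. Slc2a3, the GLUT3 transporter of neurons and leukocytes, was the only transporter called higher. It was at 1.74, 1.10 and 1.37 CPM in Sham and 14.5, 1.97 and 9.16 CPM in the VSG livers, with a log2 fold change of 2.60 ± 0.68 (SE, edgeR adjusted p = 0.0479). The 3 VSG livers ranked for Slc2a3 as for the neutrophil marker sum (VSG 4, VSG 6, VSG 5), and Slc2a3 was called in 6 of 13 alternatives. The part of these cells in its value was not tested.

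Hk3, the hexokinase of myeloid cells, was at 11.4, 6.35 and 8.24 CPM in Sham and 32.5, 11.4 and 17.1 CPM in the VSG livers, which ranked as for the neutrophil markers (VSG 4, VSG 6, VSG 5). The Hk3 log2 fold change of 1.23 ± 0.40 (SE) was not called (edgeR adjusted p = 0.0865), was 0.72 without VSG 4 and passed in 3 of 13 alternatives, namely without VSG 5 (1.49, adjusted p = 0.0325), with DESeq2 (1.20, adjusted p = 0.0217) and with no filter beyond 1 count (1.19, adjusted p = 0.0487), and the part of these cells in it was not tested. Hk1, the hexokinase of most tissues, was at 6.85 to 10.4 CPM in Sham and 7.39 to 15.2 CPM in the VSG livers, with overlap (log2 fold change 0.32 ± 0.29 (SE), edgeR adjusted p = 0.465) and a sign that turned without VSG 4 (-0.02).

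Among the PFKFB isoforms, Pfkfb1 was the main one in both groups, with 53.6% ± 4.27 of the summed FPKM in Sham and 51.1% ± 8.80 in the VSG livers (exact permutation p = 0.8), a difference of -2.48 percentage points that became 2.48 without VSG 4. Pfkfb3 was at 26.9% ± 10.5 in Sham and 15.1% ± 1.80 in the VSG livers, and Pfkfb2 at 16.0% ± 4.66 and 23.6% ± 2.03 (both with an exact permutation p of 0.1). The difference in the Pfkfb3 share, -11.8 percentage points, was -5.84 without Sham 2. Pfkfb4 was at 3.53% ± 2.46 and 10.1% ± 6.43 (exact permutation p = 0.2), a difference of 6.60 points that was 2.91 without VSG 4. The family sum was 17.4 ± 7.36 FPKM in Sham and 13.8 ± 2.13 FPKM in the VSG livers. Exons of Pfkfb2 share 1262 bases with Gm29427 on the same strand, so its counts and share depend on how such reads were assigned.

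Of the summed FPKM of both pyruvate kinases, Pklr held 92.0%, 97.4% and 95.2% in Sham and 48.4%, 86.7% and 79.6% in the VSG livers (difference of means -23.3 percentage points, exact permutation p = 0.1, and -11.7 without VSG 4). The rest was Pkm, the form of most other cells. Exons of Pkm share 767 bases with Gm49759 on the same strand, so its counts and both shares depend on how such reads were assigned. Pkm was at 25.2, 15.5 and 23.2 CPM in Sham and 53.3, 15.6 and 30.2 CPM in the VSG livers. The groups overlapped, and the log2 fold change of 0.63 ± 0.43 (SE) was not called (edgeR adjusted p = 0.330) and was 0.10 without VSG 4. VSG 4, with the highest neutrophil and macrophage sums, also had the highest Pkm. The family sum was 92.6 ± 27.9 FPKM in Sham and 24.5 ± 4.57 FPKM in the VSG livers.

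**Figure D2:**
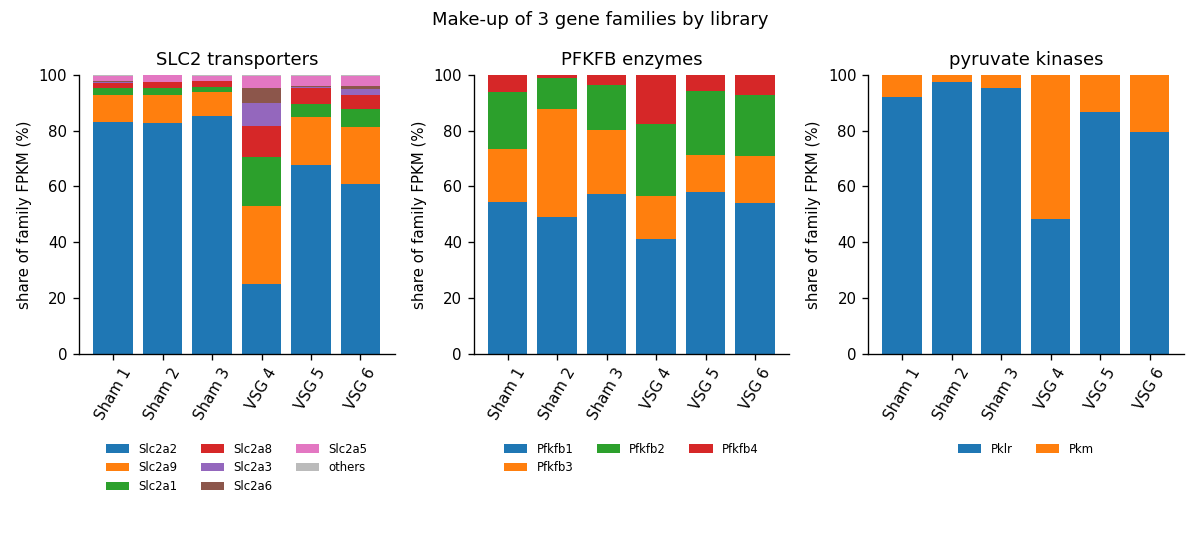
Share of the summed FPKM of 3 gene families in each library (percent, stacked to 100), with the isoforms in colour and the smallest transporters as others. Slc2a2 takes 25.0% of its family in VSG 4 against 82.8% or more in Sham livers, and Pklr takes 48.4% in VSG 4 against 92.0% or more.

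**Figure D3:**
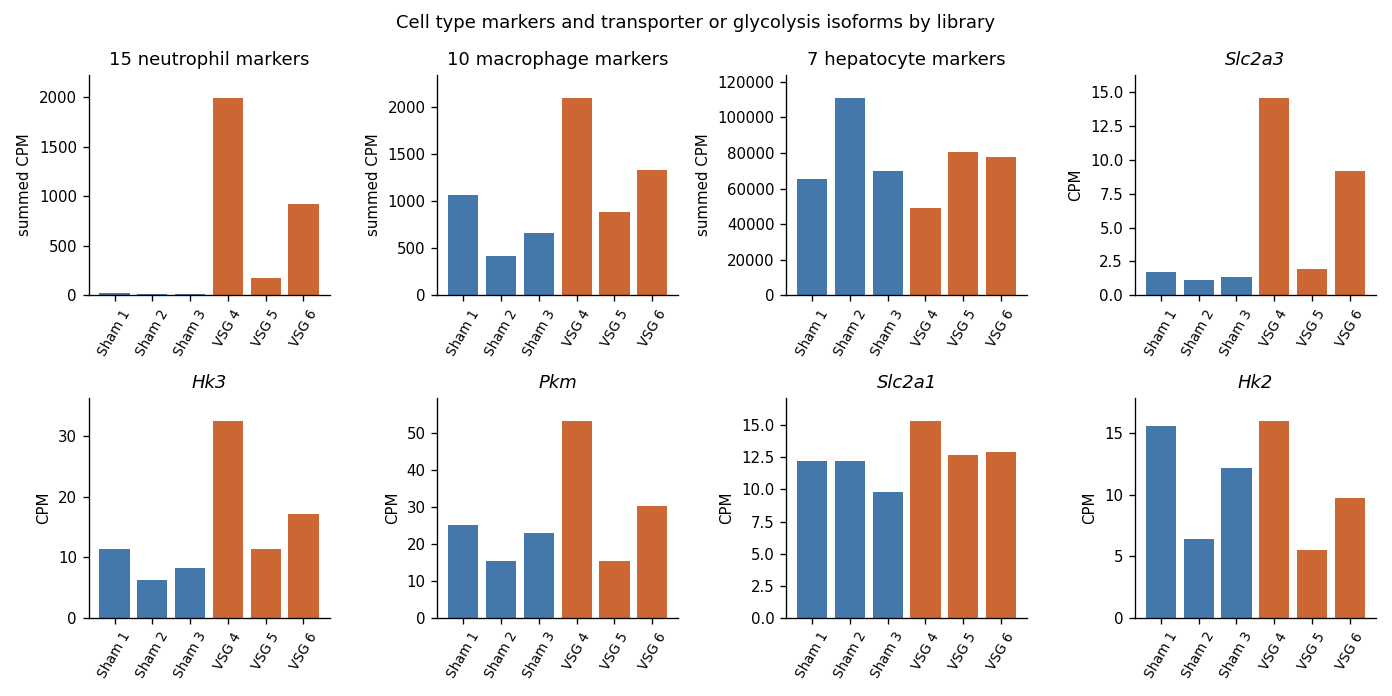
Summed CPM of neutrophil, macrophage and hepatocyte markers and CPM of 5 single genes in each library, as bars from 0. VSG 4 has the highest bar of neutrophil and macrophage markers, Slc2a3, Hk3, Pkm, Slc2a1 and Hk2, whereas Sham 1 comes second for Hk2 at 15.5 CPM with a neutrophil sum of 24.6 CPM.

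Another 68 genes of the pathway were listed by step, of which 63 were tested. Of these, 13 were lower and 1 was higher after VSG (22.2% called, against 14.7% of all tested genes), 49 were not called, and the median log2 fold change was -0.21. The groups did not overlap for 31 of the 63, against 39.7% of all tested genes. The lists by step below are short, and a share of calls near 14.7%, or near 7.87% for lower expression, is that of all tested genes. The number called moved with that of all tested genes, which was 2118 here. Without VSG 4, 9 of these genes were called (8 lower, 1 higher) and 1076 of all genes. Without VSG 5, 23 were called (18 lower, 5 higher) and 2732 of all genes. With DESeq2, 27 were called (22 lower, 5 higher) and 3270 of all genes. Without Sham 3 or without VSG 6, 1 was called, which was Eno1, against 159 and 210 of all genes. All the others, Tkfc included, lost their calls there.

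At the top of the pathway, 2 of 9 tested genes of hexose phosphorylation and fructose use were lower, namely Tkfc and Hkdc1. This list did not move in 1 direction. At an unadjusted edgeR p under 0.05, 4 were lower and 2 higher, and DESeq2 called as many. Limma-voom called 2 lower and limma on log2(FPKM + 1) 3, with 0 higher. Hkdc1, a hexokinase-like protein, was rare at 0.812, 0.640 and 0.950 CPM in Sham and 0.226, 0.214 and 0.191 CPM in the VSG livers (log2 fold change -1.91 ± 0.33 (SE), edgeR adjusted p = 0.0184), the VSG values being close to the level of 3 counts. At the phosphofructokinase step 1 of 6 tested genes was lower, Pfkm, the muscle isoform, with a log2 fold change of -0.85 ± 0.20 (SE, edgeR adjusted p = 0.0349). Its exons share 341 bases with Gm26513 on the same strand.

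In lower glycolysis, 2 of 12 tested genes were lower, Eno1 among them. An unadjusted edgeR p under 0.05 was found for 6 of the 12, all lower. DESeq2 and limma on log2(FPKM + 1) each called 5 lower and limma-voom 2, and none called a gene of this list higher. Eno1, the ubiquitous enolase, was at 62.8, 61.4 and 80.8 CPM in Sham and 30.9, 31.3 and 25.5 CPM in the VSG livers. Its log2 fold change was -1.22 ± 0.15 (SE, edgeR adjusted p = 0.00792), and it was called under all 13 alternatives. Reads of Eno1 can be shared with 2 near-identical genes, and those of Gapdh with 48, so their counts depend on how such reads were assigned. Sord, Pdhb and Pkm each have 1 near-identical pseudogene. Gapdh was at 7.86 to 10.1 CPM in Sham and 6.83 to 8.49 CPM in the VSG livers.

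The fate of pyruvate held the most calls: 7 of 16 tested genes were lower and 0 higher, with a median log2 fold change of -0.52. Pdk4, a kinase that switches off pyruvate dehydrogenase, was at 19.5, 40.1 and 18.8 CPM in Sham and 4.62, 6.88 and 4.58 CPM in the VSG livers (log2 fold change -2.28 ± 0.35 (SE), edgeR adjusted p = 0.0142). Pdk1, a second such kinase, had a log2 fold change of -1.48 ± 0.33 (SE, edgeR adjusted p = 0.0320), and the carrier of pyruvate and lactate Slc16a7 (MCT2) one of -1.22 ± 0.18 (SE, edgeR adjusted p = 0.0126). The other 4 were Pdk2 and, named after their values were seen, the pyruvate dehydrogenase subunits Pdha1 (-0.94), Pdhb (-0.66) and Dlat (-0.89). Both the enzyme's subunits and kinases that inhibit it were therefore among the genes called lower.

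Of 8 carbohydrate-sensing genes tested, 1 was lower, a share (12.5%) close to that of all tested genes. This was Txnip, an arrestin-like protein induced by glucose and a ChREBP target, at 142, 209 and 231 CPM in Sham and 80.6, 102 and 57.7 CPM in the VSG livers (log2 fold change -1.27 ± 0.26 (SE), edgeR adjusted p = 0.0270). Of 5 genes of the opposing direction, 0 were called by edgeR at an adjusted p under 0.05 and 0 by limma-voom. An unadjusted edgeR p under 0.05 was found for 3, all lower, and DESeq2 and limma on log2(FPKM + 1) each called 3 lower (G6pc and, named after their values were seen, Pcx and Slc37a4). G6pc, the glucose 6-phosphatase catalytic subunit, was at 174, 496 and 227 CPM in Sham and 23.4, 117 and 48.8 CPM in the VSG livers, without overlap (log2 fold change -2.25 ± 0.65 (SE), edgeR adjusted p = 0.0636). It passed in 5 of 13 alternatives, DESeq2 (adjusted p = 0.0299) and leaving out VSG 5 (-3.06, adjusted p = 0.0220) among them, and was -1.67 without Sham 2. Pck1, phosphoenolpyruvate carboxykinase, which bypasses pyruvate kinase, was at 1884, 3835 and 1920 CPM in Sham and 1124, 2076 and 2438 CPM in the VSG livers, with overlap (log2 fold change -0.44 ± 0.40 (SE), edgeR adjusted p = 0.470). That value came to -0.02 without Sham 2 and to -0.17 without VSG 4.

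**Figure D4:**
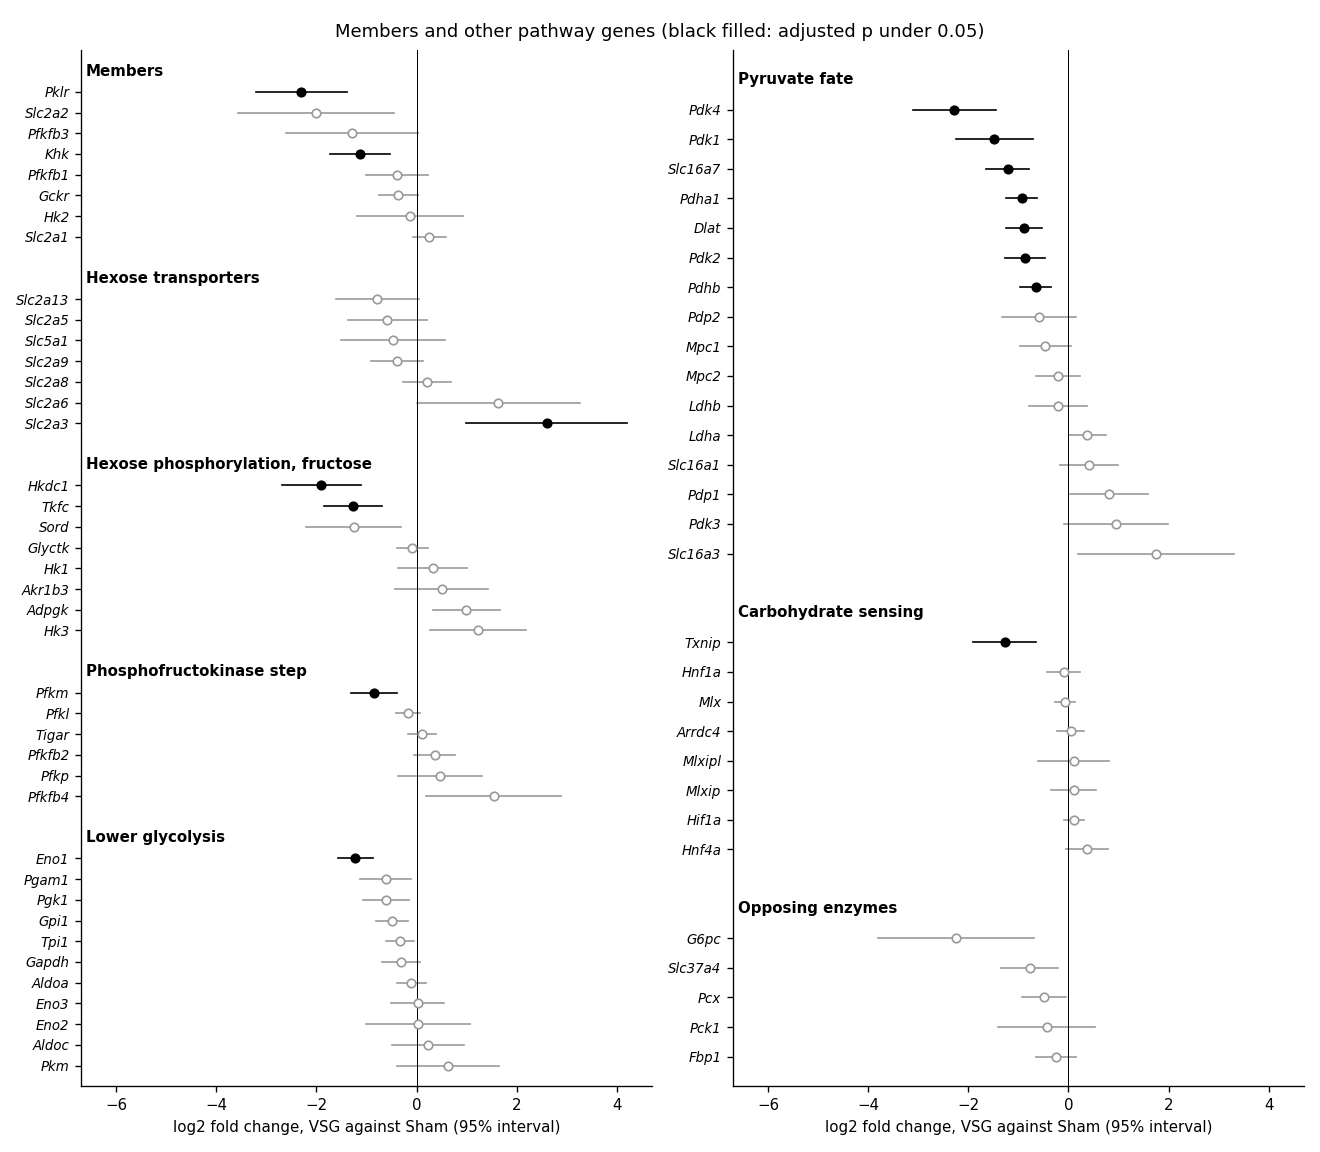
Log2 fold change of VSG against Sham with its 95% interval for the 8 genes and other tested genes of the pathway, grouped by step, where black filled points have an adjusted p under 0.05. Black points lie left of 0 for 2 of the 8 genes and for others, 7 of them in the fate of pyruvate, and right of 0 for Slc2a3.

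Across the 6 livers, the gene with the most similar log2 CPM was sought among the 70 other tested genes, the rest of the 8 included. As a description over 6 libraries that share the group difference, Pearson's r was 0.995 for Pklr and Slc16a7, 0.992 for Khk and Pdk2 and 0.967 for Slc2a2 and Sord. It was 0.922 for Pfkfb1 and Pfkfb3, which are nearest to each other and are both highest in Sham 2. Lower values were found for Slc2a1 and Hif1a (0.847) and for Hk2 and Hk1 (0.824). VSG 4 was the lowest VSG liver for Slc2a2, Gckr, Khk, Pklr and Pfkfb1 and the highest for Slc2a1 and Hk2.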

How the data were processed

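The authors prepared stranded poly(A) libraries, sequenced them on an Illumina HiSeq2500, checked reads with FastQC 0.10.1, aligned them to mm10 with STAR 2.6.0 and deposited raw read counts per gene from featureCounts (2.0.3 per the submitters' processing notes). Which annotation release and strand option were used, and how multimapping reads were handled, is not given in the sources used here. The deposited table also holds each gene's summed exon length in bases, an other kind of value used only for FPKM.

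Identifiers were matched to GENCODE M21 (GRCm38) for symbols, 54487 with version, 55144 without it, and 241 were not matched. Counts were tested with edgeR 4.0.16 (R 4.3.3): filterByExpr (minimum count 10, total 15), TMM factors (0.897 to 1.15), glmQLFit and glmQLFTest with group as the only term, Benjamini-Hochberg over 14454 genes. The SE is the log2 fold change divided by the square root of F, and intervals are 95% from the t distribution of the same test. FPKM is CPM with TMM factors per kilobase, except in limma on log2(FPKM + 1), where total counts were used without TMM factors. There the median of all genes shifted by -0.09, and 1530 genes were called lower and 407 higher. The floor of 3 counts covers counting error only. Replicate libraries differed beyond counting noise (chi-square per degree of freedom at least 25.2). The labels do not say whether the 6 libraries stem from separate cages or days. The p-values set the group difference against the estimated spread between livers of a group, which may include differences between cages or days.

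Besides the 8 genes, the text names G6pc and Pck1, up to 3 called genes of largest change in each of 7 pathway lists, the most similar gene of the 8 (Pearson's r of log2 CPM, prior count 2) and members of families whose shares are given. Mlxipl, Gapdh and Hk3 fall outside this rule and were named after their values were seen, as were Pdha1, Pdhb and Dlat. Results of some genes under this rule are not reported here. Near-identical copies were sought with BLAST 2.17.0 (at least 200 bases at 97% identity). Motifs were searched on both strands of RefSeq promoter windows, TATAAA (13.6% of windows) among them. The 8 genes, the lists and the tests were chosen with earlier results of these data known. Alternatives were DESeq2 1.42.0, limma-voom and limma 3.58.1 on log2(FPKM + 1), RLE factors, total counts, a filter of only 1 count, a filter of 10 counts in all libraries, and leaving out each library.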

Additional observations from a re-analysis of the deposited data

How the results depend on the processing

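No paired analysis was possible because the sample numbers of the Sham livers (1 to 3) and the VSG livers (4 to 6) are not shared. Of 13 alternatives, those that leave out 1 library gave the widest range in the number of the 8 genes called. They gave log2 fold changes of -0.56 to -0.24 for Gckr, 0.15 to 0.31 for Slc2a1, -2.60 to -1.52 for Slc2a2, -1.37 to -0.93 for Khk, -2.54 to -2.01 for Pklr, -0.63 to -0.11 for Pfkfb1, -1.68 to -0.44 for Pfkfb3 and -0.58 to 0.15 for Hk2, which was positive without Sham 1 (0.15) and without VSG 5 (0.15). The number of the 8 genes called ran from 0 to 4, that of other pathway genes from 1 to 23 and that of all genes from 159 (without Sham 3) to 2732 (without VSG 5). The main counts were 2, 14 and 2118. Outside these leave-out ranges, DESeq2 called 27 other pathway genes and 3270 genes in all. Slc2a2 passed the threshold with DESeq2 (-2.01) and with no filter beyond 1 count (-2.03, edgeR adjusted p = 0.0382). It also passed with limma on log2(FPKM + 1) (-2.50), where the fold change is on that scale and total counts replace TMM factors. The difference in the Pfkfb1 share, -2.48 percentage points, was 2.48 without VSG 4 and -5.92 without VSG 5. Over the libraries left out, the differences in share were -40.7 to -19.4 points for Slc2a2 and -30.9 to -11.7 for Pklr. The causes were not tested. With fewer libraries each fit also has fewer degrees of freedom. The depth of 22804397 counts or more leaves genes near 0.143 CPM, such as Hkdc1 in VSG livers, imprecise.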
